A study of Arabidopsis thaliana with 24 samples.

Results

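A set of 35 Arabidopsis thaliana loci was followed through early embryo development, made up of the epidermal gene PDF1 and loci that make, export or regulate the plant cuticle. They were taken from a fixed list of loci that covers wax synthesis, cutin synthesis, export, SHN and MYB regulators, LTPG1, LTPG2 and PDF1. The rule names loci and no levels, but the list was drawn up with earlier results of these data known. These are 35 of 32399 loci in the files. The level of each locus is given as FPKM (fragments per kilobase of transcript, scaled to library size). Of the 35 members, 24 had 3 or more libraries at an FPKM of 1 or above and were tested, 11 did not, and 4 of those 11 (CER4, SHN1, SHN2 and MYB16) were listed at 0 in all 24 libraries.

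The libraries came from hybrid embryos of reciprocal crosses between the accessions Col and Ler, with no transgene or mutation named in the labels. The apical cell and the basal cell were taken from embryos of 2 cells, and the embryo proper and the suspensor from embryos of 32 cells. The stage names follow the sample labels, while the design text calls the earlier stage 1-cell. For every cell type there were 3 libraries from a Col mother with a Ler father (called Col mother here) and 3 from a Ler mother with a Col father (Ler mother), which makes 8 groups. The design text calls the replicates biologically independent, but the labels do not say which plants they came from or how many cells were pooled, so the spread behind the p-values is that of these libraries and may be partly technical. The values are totals over both parental alleles.

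The cuticle is the hydrophobic layer on the outer face of the shoot epidermis. Its waxes are made from very long fatty acids, which the elongase enzymes of the endoplasmic reticulum build and the CER proteins turn into alkanes, alcohols and esters, and its cutin is a polyester of hydroxylated fatty acids and glycerol. ABC transporters of the plasma membrane and lipid transfer proteins with a membrane anchor carry these lipids outwards, and MYB and SHN transcription factors raise the activity of the pathway genes. PDF1 (PROTODERMAL FACTOR 1) encodes a proline-rich extracellular protein that is a classical marker of the outermost cell layer, in which the L1 box, a short promoter word bound by epidermal homeodomain proteins such as ATML1, is known to act.

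Promoter windows were read from the RefSeq genome (TAIR10.1), 250 bases before to 50 bases after the annotated start of each gene, and are shown here because the L1 box is the known epidermal element of PDF1. The box was searched as TAAATGCA or TAAATGTA on both strands, and 7 of 35 members held it (20.0%), against 5.10% of 27444 protein-coding genes. The MYB AC elements (ACCAAAC, the form ACCAACC, the form ACCTAAC and the form ACCTACC, both strands) were found in 8 of 35 members (22.9%) and in 16.3% of all genes. The GCC box (GCCGCC, both strands) was found in 1 member, GPAT6 (2.86%), and in 2.57% of all genes. None of these words contains another, and no test was made of these shares. The 8 members with an AC element were CER6, FDH, PAS2, CER2, CER1, CER4, WSD1 and LACS2, so FDH was the one gene with both an AC element and an L1 box. Each stretch is printed 5′ to 3′ on the gene's own strand with the box in capitals, and boxes that lie after the annotated start are shown within 30 bases.
FDH, chr2:11173295-11173362, minus strand: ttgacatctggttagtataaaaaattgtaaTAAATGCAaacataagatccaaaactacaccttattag
ABCG11, chr1:6142290-6142357, plus strand: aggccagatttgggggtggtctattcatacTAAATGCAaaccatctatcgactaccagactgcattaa
MYB96, chr5:25081142-25081195, minus strand: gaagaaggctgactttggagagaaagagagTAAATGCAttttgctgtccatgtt
MYB94, chr3:17541435-17541502, minus strand: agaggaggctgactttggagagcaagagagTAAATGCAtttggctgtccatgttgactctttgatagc
PDF1, chr2:17827600-17827629, minus strand: atgggatagtgTAAATGCAcctgcaacaca
GPAT8, chr4:176826-176855, minus strand: ttcaatataggTGCATTTAaaacataacgt
ABCG12, chr1:19101245-19101274, minus strand: tctcactctctTACATTTAatgtgcaagaa
The box began 54 bases before the start in FDH, 82 before in ABCG11 (1 of 2 boxes in its window), 24 before in MYB96 and 165 before in MYB94. It began at base 30 after the start in PDF1, and in GPAT8 and ABCG12 it lay on the opposite strand just after the start. The stretches of MYB96 and MYB94, which encode closely related MYB factors, were identical at 49 of 54 bases compared, although the box stood at different distances from the annotated starts.

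Depth was not stated and was estimated from low FPKM values at 16.0 to 30.8 M fragments a library. In the suspensor 16.1 to 26.3% of the summed FPKM lay in the 10 leading loci, and 4.32 to 6.73% elsewhere. The summed FPKM of 4 apical lineage markers was 332 to 619 in the embryo proper and 0.14 to 9.84 in the suspensor, and that of 3 basal lineage markers was 77.4 to 122 and 553 to 779. At 2 cells the sets stood less far apart. The apical lineage sum was 272 to 578 in the apical cell and 86.2 to 180 in the basal cell, and the basal lineage sum was 26.8 to 99.3 and 510 to 664. Of the apical lineage markers WOX2 overlapped between these cells, while DRN and HAN did not. The summed FPKM of 8 endosperm markers was 1.16 to 3.12 in the embryo proper, 5.51 to 42.6 in the apical cell, 59.4 to 419 in the basal cell and 69.9 to 249 in the suspensor. Outside the embryo proper most of it was SUC5, a sucrose carrier known from the endosperm. A further marker of the list, AGL62, stood at 0.90 to 30.5 FPKM in the suspensor and at 0 to 13.6 in the basal cell. AGL62 was at 0 to 1.06 FPKM in the apical cell and at 0 to 2.18 in the embryo proper. Of the 8 markers 2 (PHE1 and ZOU) were at 0 in every library. The summed FPKM of 8 seed coat markers was 0.05 to 1.54 in the embryo proper, 0 to 2.45 in the apical cell and 0 to 11.2 in the basal cell. In the suspensor 1 library stood apart, Col replicate 1 at 35.4 FPKM (CHS at 26.2 and BAN at 7.98), against 0 to 7.75 in the other 5, and TT10 and TT16 were at 0 in every library. Without that library 13 members were called between embryo proper and suspensor and 11 between suspensor and basal cell. The part of such RNA in the differences described here was not tested. Differences were tested with limma on log2(FPKM + 1) over 18206 genes, with p-values adjusted by the Benjamini-Hochberg method and called under 0.05. This scale understates the change of low genes. A bulk value cannot tell fewer cells of a type from less RNA per cell.

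**Figure D1:**
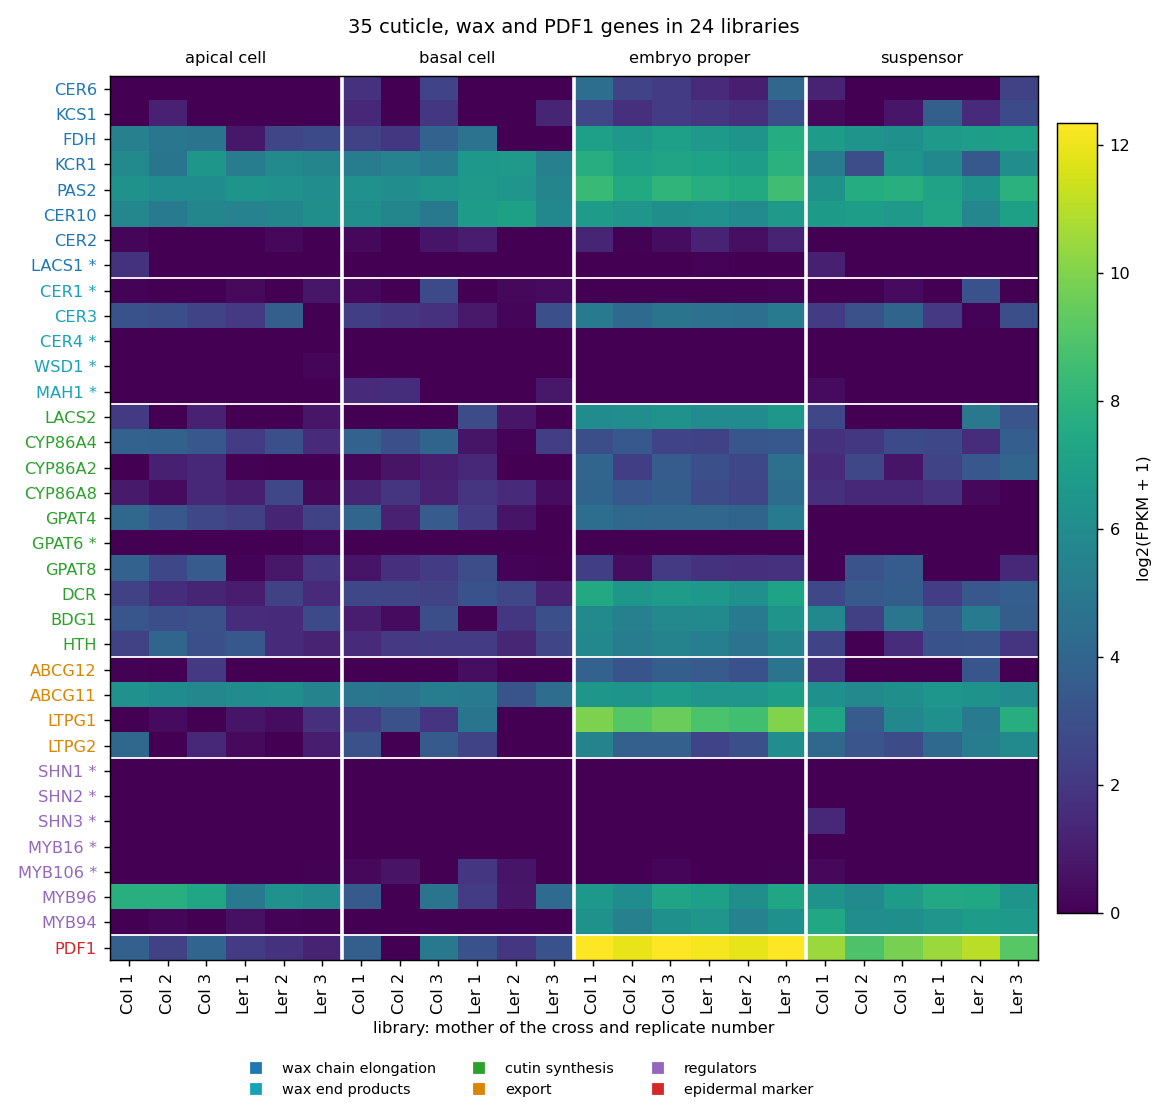
Level of every member in every library as log2(FPKM + 1), with rows ordered by role (colour of the name), columns by cell type and cross, and an asterisk on the 11 members that were not tested. PDF1 and LTPG1 are the brightest rows in the embryo proper, and GPAT4 is at 0 in all 6 suspensor columns.

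On the log2(FPKM + 1) scale PDF1 had the largest fitted difference between the stages of the tested members, in both lineages. In the apical cell PDF1 (AT2G42840, chr2:17826071-17827648) stood at 12.6, 4.24 and 15.4 FPKM with a Col mother and at 3.53, 2.46 and 1.34 with a Ler mother. In the embryo proper the Col mother libraries held 5199, 3860 and 5105 FPKM and the Ler mother libraries 4678, 3729 and 5115. The stages were far apart, with no embryo proper library under 3729 and no apical cell library over 15.4, and the fitted log2 difference was 9.59 (SE 0.56, adjusted p = 1.23e-11). The basal cell ranged from 0 to 30.7 FPKM with a median of 7.69. The suspensor held 1421, 479 and 888 FPKM with a Col mother and 1427, 2159 and 561 with a Ler mother, all above every basal cell library (log2 difference 7.16, SE 0.56, adjusted p = 6.77e-10). Within the 32-celled embryo no suspensor library reached the lowest embryo proper library (log2 difference 2.18, SE 0.56, adjusted p = 0.00226), but the adjusted p was 0.0604 in the Ler mother libraries alone.

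As a set, 19 of 35 members (of 24 tested) were higher in the embryo proper than in the apical cell and none was lower, where 10.2% of all tested genes were higher, 11.7% lower and 21.9% called in either direction. The median log2 difference was 2.49 over the 24 tested members and -0.07 over all tested genes. In 16 of the 24 the libraries of the cell types did not overlap, which held for 19.4% of all tested genes. The mean was highest in the embryo proper for 19 of the 24, highest in the apical cell for 3 (CYP86A4, GPAT8 and MYB96), in the suspensor for 2 (CER10 and MYB94) and in the basal cell for none. Over all tested genes the embryo proper held the highest mean for 18.3%. The summed FPKM of the 35 members ran from 286 to 629 in the apical cell and from 5030 to 8004 in the embryo proper, and without PDF1 from 282 to 617 and from 1301 to 2889. These comparisons share the embryo proper libraries with the comparison to the suspensor, so the counts are not independent of each other. CER2, counted in both, would not have passed the filter without its embryo proper libraries. With the Col mother libraries alone the calls of KCS1, FDH, KCR1, CER2, CER3, GPAT4 and LTPG2 were lost, and with the Ler mother alone those of CER6, KCR1 and CER2, each from fewer libraries.

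The embryo proper was also higher than the suspensor in 14 members (of 24 tested) and lower in none, where 28.5% of all tested genes were higher, 22.4% lower and 50.9% called in either direction. The median log2 difference was 1.23 in the members and 0.12 in all tested genes, with genes listed at 0 in the suspensor entering at their fitted values. In 10 of 24 members the libraries did not overlap, against 31.5% of all tested genes. With the Col mother alone the calls of PAS2, CER2, CER3 and BDG1 were lost, and with the Ler mother alone those of CER6, PAS2, BDG1 and PDF1. Suspensor and basal cell differed in 11 members, 10 higher in the suspensor and 1 (GPAT4) lower, where 18.9% of tested genes were higher, 26% lower and 44.9% called. The median log2 difference there was 0.76 in members and -0.15 in all genes, and 5 of 24 members did not overlap, against 16.2% of all genes. With the Col mother alone the calls of CYP86A2 and LTPG2 were lost, and with the Ler mother alone those of PAS2 and GPAT4. At 2 cells 2 members were called, MYB96 and ABCG11, both higher in the apical cell, where 11.8% of tested genes were higher, 12.2% lower and 24% called. The 2 that did not overlap there were the same genes, against 10.2% of all genes.

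**Figure D2:**
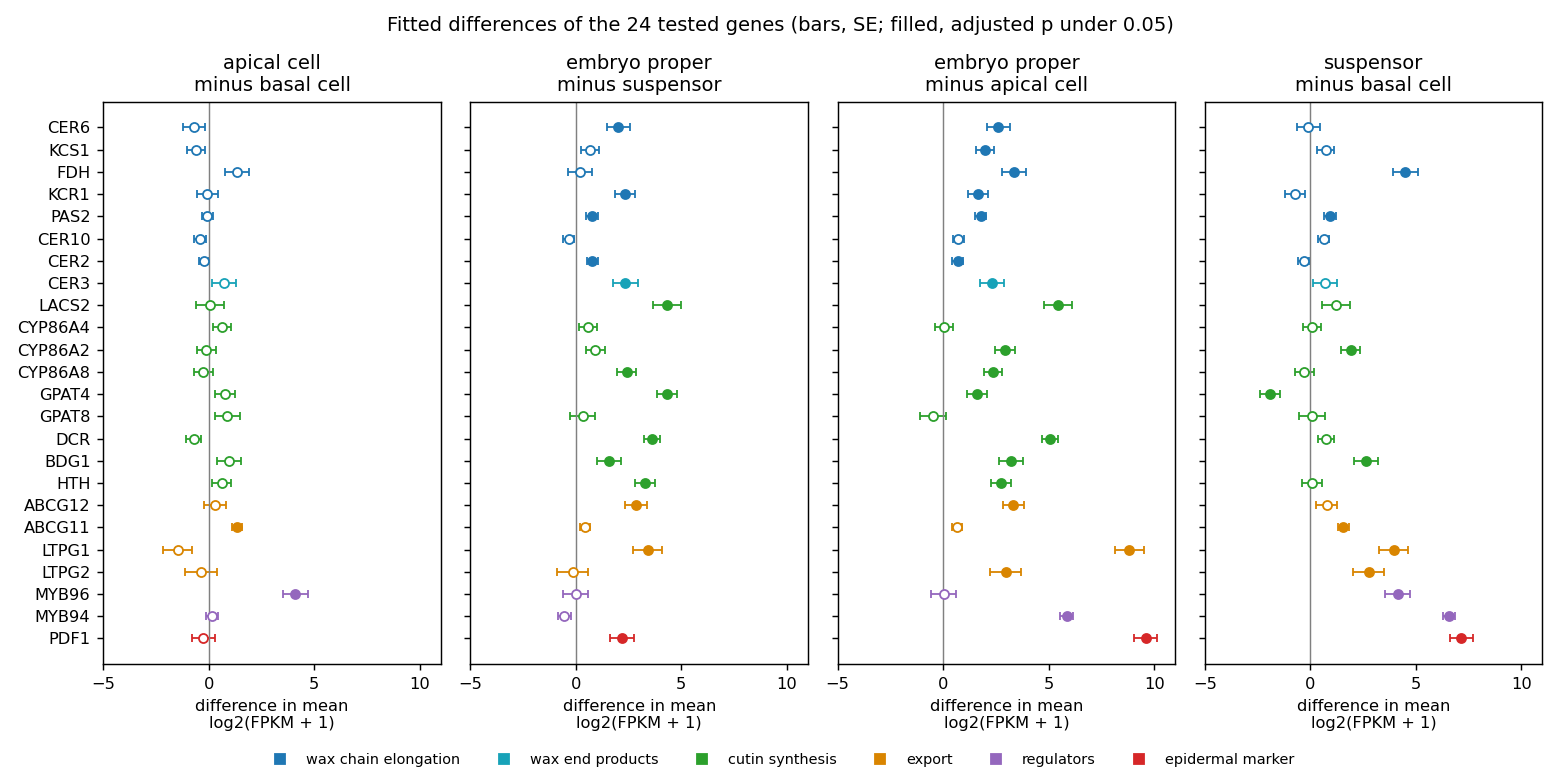
Fitted difference in mean log2(FPKM + 1) with its SE for the 24 tested members in each comparison of cell types, with filled points for an adjusted p under 0.05. Of the filled points 2, 14, 19 and 11 stand in the panels from left to right, and GPAT4 in the last panel is the single filled point left of 0.

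The elongase that lengthens fatty acids works in a repeated cycle of enzymes, and members stand at every step. The condensing enzymes CER6, KCS1 and FDH (FIDDLEHEAD, known from its organ fusion mutant) start each round. FDH stood at 41.1, 27.3 and 26.2 FPKM in the apical cell with a Col mother and at 0.71, 4.98 and 5.86 with a Ler mother, and at 84.0 to 199 in the embryo proper, with no overlap (log2 difference 3.35, SE 0.58, adjusted p = 0.00013). In the Col mother libraries alone, where the apical cell was higher, that difference was 1.83 with an adjusted p of 0.174. FDH was also abundant in the suspensor, at 72.3 to 130 FPKM, and there it stood far above the basal cell at 0 to 25.4 FPKM (log2 difference 4.50, SE 0.58, adjusted p = 1.37e-06). Embryo proper and suspensor did not differ beyond their spread in FDH (log2 difference 0.20, SE 0.58, adjusted p = 0.807).

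CER6, the main condensing enzyme for stem wax, was low everywhere. It was listed at 0 in 5 apical cell libraries and at 0.02 in the other, and in the embryo proper it ranged from 1.03 to 20.7 FPKM with a median of 4.18 (log2 difference 2.62, SE 0.54, adjusted p = 0.000825, and 0.0668 in the Ler mother libraries alone). In the suspensor CER6 ranged from 0 to 4.27 FPKM, which overlapped the embryo proper (log2 difference 2.01, adjusted p = 0.00343), and the adjusted p was 0.162 in the Ler mother libraries alone and 0.0742 with library weights. KCS1 ran from 2.15 to 6.86 FPKM in the embryo proper and from 0 to 1.19 in the apical cell (log2 difference 1.98, SE 0.41, adjusted p = 0.000962). CER2, needed for the last rounds of elongation, was called higher in the embryo proper than in both other cell types, but it was at 0.06 to 1.41 FPKM there. It passed the filter through that group, with 1.41, 1.31 and 1.28 FPKM there and 1.01 in basal cell Ler replicate 1. Its calls, here and in the interaction, are part of the counts of members called but are no support of their own. CER2 was listed at 0 in all 6 suspensor libraries, and the call against the apical cell (adjusted p = 0.0476) was lost when any 1 of 16 libraries was left out. The call against the suspensor (adjusted p = 0.0109) was lost with quantile normalization (0.142), with library weights (0.0517) and with the Col mother alone (0.199).

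The core enzymes that all very long chain fatty acids need were abundant at both stages. PAS2, the dehydratase, stood at 63.0 to 82.4 FPKM in the apical cell and at 180 to 372 in the embryo proper, with no overlap (log2 difference 1.78, SE 0.27, adjusted p = 2.95e-05). PAS2 in the suspensor ran from 78.8 to 234 FPKM and was called lower than the embryo proper (adjusted p = 0.022), but the call was lost without Col replicate 1 or Ler replicate 3 of the embryo proper, or without Col replicate 1 or Ler replicate 2 of the suspensor (adjusted p 0.0617 to 0.0829). KCR1, the first reductase, stood at 115 to 235 FPKM in the embryo proper and at 6.61 to 84.2 in the suspensor, with no overlap (log2 difference 2.31, SE 0.48, adjusted p = 0.000343). KCR1 in the apical cell ran from 27.0 to 92.2 FPKM (log2 difference 1.64, adjusted p = 0.0157), a call that ended without Col replicate 2 of the apical cell (adjusted p = 0.0532) and in each cross alone (0.168 with a Col mother and 0.112 with a Ler mother). CER10, the last reductase of the cycle, was called in no comparison of cell types and had its highest mean in the suspensor, at 108 ± 32.2 FPKM (SD, n = 6). LACS1, which activates fatty acids for wax, reached at most 2.51 FPKM.

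Of the 5 genes that turn long chains into wax end products, CER3 was the only one tested. CER3, which works with CER1 to form alkanes, stood at 17.6 to 34.3 FPKM in the embryo proper with a median of 25.0. It stood at 0.03 to 12.4 in the apical cell (log2 difference 2.32, SE 0.57, adjusted p = 0.0043) and at 0.09 to 14.7 in the suspensor (log2 difference 2.35, SE 0.57, adjusted p = 0.00159). The embryo proper overlapped neither cell type, and in the Col mother libraries alone the adjusted p was 0.175 and 0.131. Its partner CER1 was near 0, and its highest value in the embryo proper was 0.09 FPKM. CER1 exceeded 1 FPKM in only basal cell Col replicate 3, at 5.93, and suspensor Ler replicate 2, at 7.62. The fatty acyl reductase CER4 was listed at 0 in all libraries, the wax ester synthase WSD1 reached 0.17 FPKM, and the midchain alkane hydroxylase MAH1 reached 2.04 in the basal cell and 0.03 in the embryo proper.

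Of the 10 cutin genes, 9 tested, 7 were higher in the embryo proper than in the apical cell and 6 higher than in the suspensor, where 10.2% and 28.5% of all tested genes were. By role, 6 of 7 tested elongation genes and 3 of 4 export genes were also higher than in the apical cell. LACS2, the acyl-CoA synthetase of cutin synthesis, stood at 63.2, 64.7 and 76.7 FPKM with a Col mother and at 61.2, 61.9 and 90.8 with a Ler mother in the embryo proper. Its suspensor values were 5.26, 0 and 0, then 0, 29.4 and 8.59, and its apical cell values lay between 0 and 3.33. All embryo proper libraries were above all others, with log2 differences of 4.32 over the suspensor (SE 0.66, adjusted p = 8.82e-06) and 5.46 over the apical cell (SE 0.66, adjusted p = 1.08e-06). DCR, an acyltransferase without which cutin is not assembled normally, stood at 73.3 to 180 FPKM in the embryo proper, at 3.80 to 11.98 in the suspensor and at 1.01 to 7.64 in both early cells. Its log2 difference was 3.61 over the suspensor (SE 0.37, adjusted p = 3.28e-08) and 5.08 over the apical cell (SE 0.37, adjusted p = 5.08e-10).

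HTH (HOTHEAD), an oxidoreductase, and BDG1 (BODYGUARD), an extracellular hydrolase, are known from mutants with fused organs. HTH stood at 24.9 to 53.8 FPKM in the embryo proper and at 0.02 to 8.34 in the suspensor, with no overlap (log2 difference 3.28, SE 0.46, adjusted p = 2.82e-06). HTH in the apical cell ranged from 1.31 to 15.1 FPKM (log2 difference 2.74, adjusted p = 8.35e-05). BDG1 stood at 34.3 to 82.5 FPKM in the embryo proper and at 1.79 to 8.71 in the apical cell (log2 difference 3.22, SE 0.57, adjusted p = 0.000152). The suspensor held BDG1 at 4.04 to 54.1 FPKM, with the highest value in Col replicate 1, the library with the highest seed coat marker sum. It was above the basal cell at 0.05 to 7.09 (log2 difference 2.63, adjusted p = 0.000604, and 2.26 with 0.00278 without that library). It overlapped the embryo proper, and that call (adjusted p = 0.0258) was lost when any 1 of 5 libraries was left out (adjusted p 0.0511 to 0.0998).

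The fatty acid hydroxylases CYP86A2, CYP86A4 and CYP86A8 and the acyltransferases GPAT4, GPAT6 and GPAT8 did not share one set of calls within either family. CYP86A4 overlapped between all 4 cell types, with means from 5.05 FPKM in the suspensor to 8.06 in the apical cell, and was called in no comparison between cell types. CYP86A2 was at 0 to 1.62 FPKM at 2 cells and at 3.97 to 22.7 in the embryo proper (log2 difference 2.93, SE 0.45, adjusted p = 3e-05). CYP86A2 in the suspensor, at 0.60 to 15.3 FPKM, was higher than in the basal cell (log2 difference 1.91, adjusted p = 0.00144), but not in the Col mother libraries alone (adjusted p = 0.26). CYP86A8 was at 5.06 to 19.9 FPKM in the embryo proper and at 0 to 2.38 in the suspensor (log2 difference 2.40, SE 0.44, adjusted p = 9.32e-05).

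GPAT4 was detected at 2 cells and in the embryo proper but in no suspensor library. It stood at 16.2, 9.34 and 5.27 FPKM (Col mother) and 4.14, 1.41 and 4.31 (Ler mother) in the apical cell, and at 20.8, 16.8 and 15.8, then 15.7, 14.8 and 34.3 in the embryo proper. In the basal cell it was at 15.1, 1.17 and 10.6 with a Col mother and 3.37, 0.62 and 0 with a Ler mother, and in the suspensor GPAT4 was listed at 0 in all 6 libraries. The embryo proper was higher than the apical cell (log2 difference 1.62, SE 0.47, adjusted p = 0.0134), but not in the Col mother libraries alone (adjusted p = 0.51) or with a pseudocount of 0.1 (0.0968). The suspensor was lower than the embryo proper (adjusted p = 6.33e-08) and lower than the basal cell (adjusted p = 0.00183). No fold is given against libraries at 0. Against the basal cell the call rested on the Col mother libraries, since the adjusted p was 0.287 with the Ler mother alone. GPAT8, its closest relative, was not called in any comparison of cell types and had means between 2.17 and 5.54 FPKM, and GPAT6, known from flowers, reached 0.14 FPKM. Paralogs of this kind share reads, and how the deposited values divide them was not tested.

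GPAT4 (chr1:221642-224351, minus strand) and CYP86A4 (chr1:218834-221286, plus strand) lie end to end with 355 bases and no gene between them. CYP86A2 (chr4:160643-163023) and GPAT8 (chr4:173953-176870) form a like pair 10929 bases apart with 3 protein-coding genes between them. The neighbours did not share their calls between cell types: of the first pair GPAT4 was called in 3 of the 4 comparisons of cell types and CYP86A4 in none, and of the second pair CYP86A2 was called in 2 and GPAT8 in none. Between crosses, every Col mother library of the apical cell was above every Ler mother library in both GPAT4 and CYP86A4, though neither was called. Of the second pair this held for GPAT8 only, and in the basal cell for CYP86A4 only.

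**Figure D3:**
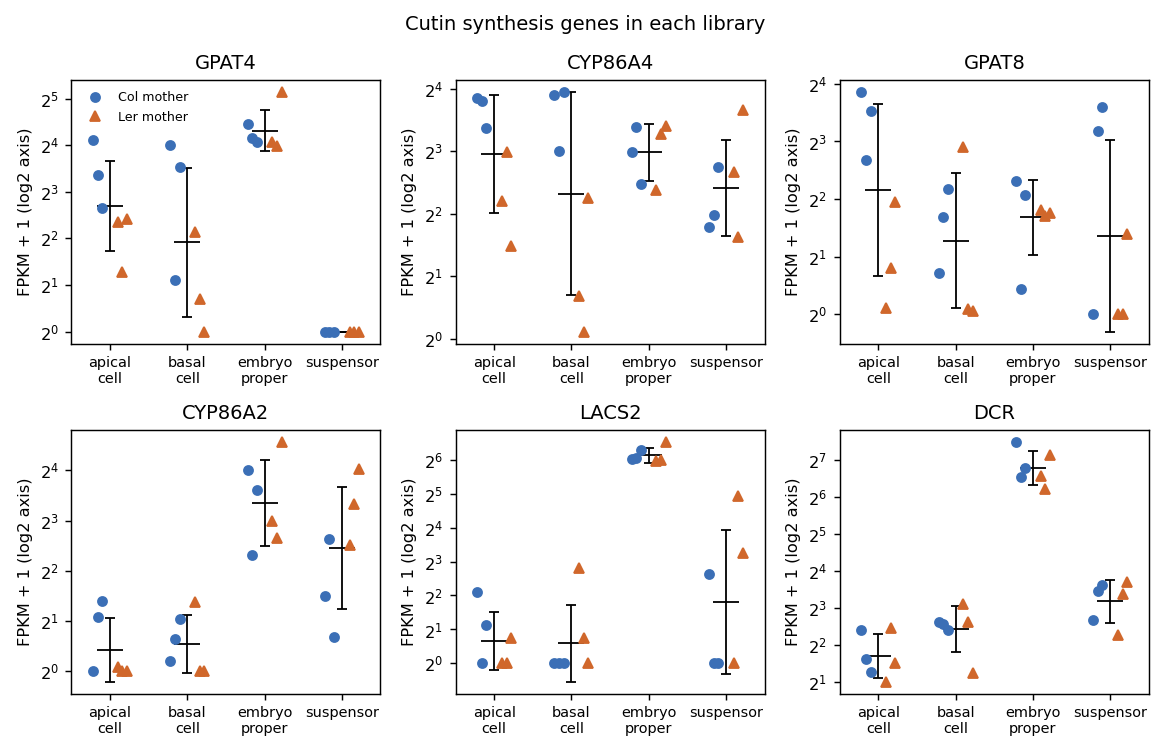
FPKM + 1 on a log2 axis in every library for cutin genes, with circles for a Col mother, triangles for a Ler mother, and a bar for the mean and SD of log2(FPKM + 1) over 6 libraries. GPAT4 is at 0 in all suspensor libraries, while LACS2 and DCR are highest in all 6 embryo proper libraries.

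Among the export genes LTPG1 had, after PDF1, the next largest log2 difference between embryo proper and apical cell of the tested members (8.82, SE 0.68). LTPG1, a membrane-anchored lipid transfer protein needed for wax on the surface, was at 0, 0.28 and 0 FPKM in the apical cell with a Col mother and at 0.62, 0.33 and 2.19 with a Ler mother. In the embryo proper LTPG1 (AT1G27950, chr1:9740508-9742159) stood at 976, 547 and 747, then 453, 392 and 1041 FPKM. In the suspensor it stood at 150, 10.8 and 54.0, then 72.0, 34.7 and 208 FPKM. The embryo proper lay above all libraries of both cell types (adjusted p = 1.05e-09 against the apical cell), by a log2 difference of 3.40 over the suspensor (SE 0.68, adjusted p = 0.000218). The suspensor was higher than the basal cell by 3.95 on the log2 scale (SE 0.68, adjusted p = 5.37e-05), where values were 3.78, 7.42 and 2.60 with a Col mother and 26.5, 0 and 0 with a Ler mother, so these cell types overlapped.

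LTPG2, its relative, did not differ between embryo proper and suspensor beyond the spread. The ranges were 4.68 to 65.4 FPKM and 6.12 to 59.1 FPKM, with medians of 12.7 and 17.1 (adjusted p = 0.884). Both were higher than the cell of their lineage at 2 cells (log2 difference 2.96, SE 0.74, adjusted p = 0.00488 for the apical lineage, and 2.76, SE 0.74, adjusted p = 0.00431 for the basal lineage), and neither call held with the Col mother libraries alone (adjusted p 0.14 and 0.401). The suspensor call was also lost without the 4 libraries whose protocol names NEBNext beside Nextera XT (adjusted p = 0.0518).

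Of the ABC transporters that export wax and cutin precursors, ABCG11 was the more abundant by mean FPKM in every cell type. ABCG11 stood at 75.4, 62.6 and 52.2 FPKM (Col mother) and 61.9, 64.9 and 44.9 (Ler mother) in the apical cell and at 27.8, 24.8 and 35.7, then 34.3, 8.18 and 20.4 in the basal cell. Every apical cell library exceeded every basal cell library (log2 difference 1.34, SE 0.24, adjusted p = 0.00031). The suspensor, at 54.9 to 87.5 FPKM, was above the basal cell (log2 difference 1.57, SE 0.24, adjusted p = 1.48e-05), and the embryo proper, at 84.0 to 117, was not called against the apical cell (adjusted p = 0.0537) although their libraries did not overlap. ABCG12 was at 7.57 to 25.7 FPKM in the embryo proper, listed at 0 in 4 of 6 suspensor libraries and at 2.45 and 8.95 in the other two, and at 0 to 3.34 FPKM in the apical cell. Its log2 difference was 2.85 over the suspensor (SE 0.51, adjusted p = 7.34e-05) and 3.33 over the apical cell (SE 0.51, adjusted p = 3.21e-05).

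Among the regulators only the MYB factors MYB96 and MYB94, known activators of wax genes, were above the filter, and they differed in when and where they were detected. MYB96 (AT5G62470, chr5:25078991-25081141) stood at 220, 221 and 153 FPKM in the apical cell with a Col mother and at 31.0, 73.8 and 61.2 with a Ler mother. The basal cell held 10.3, 0 and 25.8, then 3.43, 0.69 and 18.9 FPKM, all below the apical cell. The mean FPKM of MYB96 in the apical cell was 127 ± 83.0 (SD, n = 6), above PAS2 at 71.3 and ABCG11 at 60.3. That order rested on the Col mother libraries, since PAS2 (82.4, 75.6 and 66.1) was above MYB96 in all 3 Ler mother libraries. At 32 cells MYB96 was at 63.5 to 157 FPKM in the embryo proper and at 58.8 to 171 in the suspensor, which overlapped. It was higher in the suspensor than in the basal cell (log2 difference 4.14, SE 0.59, adjusted p = 5.51e-06), while the embryo proper overlapped the apical cell and was not called against it (adjusted p = 0.982).

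MYB94 (AT3G47600, chr3:17539289-17541307) was a gene of the later stage. It was at 0, 0.17 and 0 FPKM in the apical cell with a Col mother and at 0.46, 0.10 and 0.04 with a Ler mother, and was listed at 0 in all 6 basal cell libraries. In the embryo proper it stood at 80.7, 41.2 and 72.3, then 87.0, 43.2 and 73.4 FPKM, and in the suspensor at 163, 66.2 and 70.6, then 84.5, 110 and 96.9. All libraries at 32 cells were above all at 2 cells (adjusted p = 1.68e-12 in the apical lineage and 2.16e-13 in the basal lineage), and embryo proper and suspensor were not called apart (adjusted p = 0.128). The other regulators stayed near 0. SHN3 reached 1.57 FPKM in a single library, suspensor Col replicate 1, which also had the highest seed coat marker sum, and was listed at 0 in the other 23, and MYB106 reached 2.91 in the basal cell and 0.15 in the embryo proper.

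**Figure D4:**
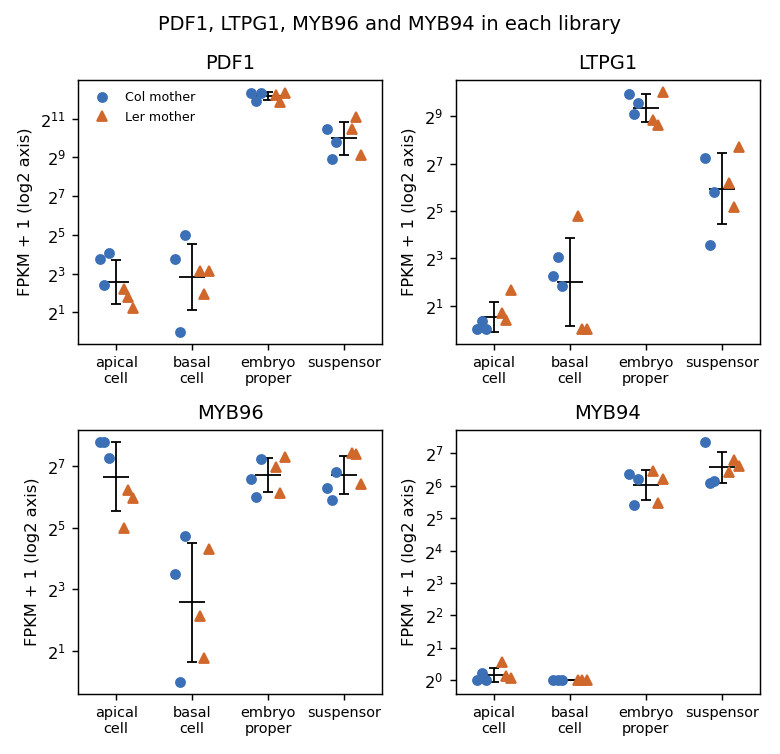
FPKM + 1 on a log2 axis in every library for PDF1, LTPG1, MYB96 and MYB94, with circles for a Col mother, triangles for a Ler mother, and a bar for the mean and SD of log2(FPKM + 1) over 6 libraries. MYB96 is present in the apical cell and low in the basal cell, and MYB94 is near 0 in both and at 41.2 to 163 FPKM at 32 cells.

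Whether the difference between the lineages changed from 2 to 32 cells was tested as an interaction, which is the difference between embryo proper and suspensor less that between apical and basal cell. It was called in 13 members, in 11 with a larger value at 32 cells and in 2 with a smaller one, where 19.3% of tested genes had a larger and 16.2% a smaller value and 35.5% were called. The 11 were 5 cutin genes (DCR, LACS2, GPAT4, HTH and CYP86A8), 3 elongation genes (CER6, KCR1 and CER2), the exporters LTPG1 and ABCG12, and PDF1. The 2 were MYB96 and ABCG11, the genes that already differed at 2 cells. For DCR the log2 difference was -0.72 (SE 0.37) at 2 cells and 3.61 (SE 0.37) at 32 cells, and for MYB96 it was 4.10 (SE 0.59) and -0.01 (SE 0.59). PDF1 was called at an adjusted p of 0.0187 but not with library weights (0.14), a pseudocount of 0.1 (0.205) or quantile normalization (0.0657). It was not called in either cross alone (0.223 with a Col mother and 0.0613 with a Ler mother). Without the 4 libraries of other protocol wording, which leaves Ler replicate 1 alone in its basal cell group, the PDF1 interaction was 2.17. With a single library in that group, this setting cannot show that the PDF1 call holds. With library weights the interaction calls of CER6 and CER2 were also lost (adjusted p 0.0924 and 0.108).

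**Figure D5:**
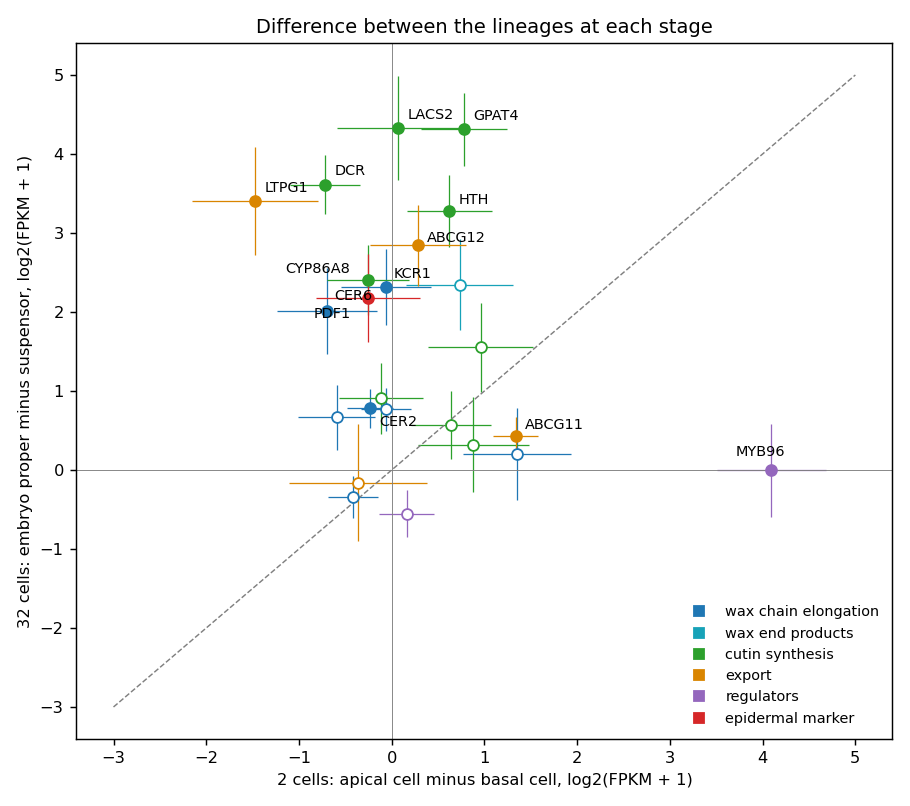
Difference between the lineages in log2(FPKM + 1) at 2 cells (x axis) and at 32 cells (y axis) for the 24 tested members, with bars for the SE, a dashed line of equal difference, and filled and named points for the 13 members whose interaction was called. Most filled points stand above the line near 0 on the x axis, and MYB96 stands below it at 4.10 on the x axis.

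Few members were called between the reciprocal crosses. No member was called between Col and Ler mothers in the apical cell, where 0.428% of tested genes were called by limma and 5 members had an unadjusted p under 0.05. Even so, the 3 Col mother libraries of the apical cell stood above the 3 Ler mother libraries in 7 of 24 tested members (FDH, CYP86A4, GPAT4, GPAT8, BDG1, MYB96 and PDF1), against 4.998% of all tested genes. They stood below them in 1 member (LTPG1), against 9.23%. The smallest p belonged to FDH (log2 difference 2.95, SE 0.82, adjusted p = 0.15) and GPAT8 (2.40, SE 0.85, adjusted p = 0.365). FDH passed the threshold when basal cell Ler replicate 1 was left out (adjusted p = 0.00353), a library that enters this comparison only through the shared estimate of spread.

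In the basal cell CYP86A4 was the 1 member called, where 7.06% of tested genes were called, 3.97% higher with a Col mother and 3.1% lower. Its values were 13.9, 7.08 and 14.5 FPKM with a Col mother and 0.60, 0.08 and 3.77 with a Ler mother, with no overlap (log2 difference 2.61, SE 0.60, adjusted p = 0.0107). The call was lost without basal cell Ler replicate 2 (adjusted p = 0.0763) and when only the basal cell libraries were fitted (0.152). In this cell type Ler replicates 2 and 3 and Col replicate 3 carry the other protocol wording, so cross and wording were not balanced. Without the libraries of that wording, which leaves Ler replicate 1 alone, the log2 difference was 2.78. With a single library in that group, this setting cannot show that the call is free of the wording. The count of members called was 4 without Ler replicate 1 and 2 without Col replicate 2 or Ler replicate 3. In the suspensor KCS1 was the 1 member called, where 4.2% were called, 2.91% higher with a Col mother and 1.3% lower. It was at 0.19, 0 and 0.67 FPKM with a Col mother and at 12.2, 1.85 and 5.92 with a Ler mother (log2 difference -2.34, SE 0.59, adjusted p = 0.0242). That call was lost without Ler replicate 1 (adjusted p = 0.076) or Col replicate 2 (0.073) and when only the suspensor libraries were fitted (0.537). Library weights (0.383) and a pseudocount of 0.1 (0.0731) also lost the KCS1 call. In the embryo proper no member was called, 0% of tested genes were, and 0 members had an unadjusted p under 0.05. Over the 4 cell types together 0 members were called, where 0.791% of tested genes were (0.401% higher and 0.39% lower with a Col mother), and 4 had an unadjusted p under 0.05.

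A second list of 32 wax and cutin genes that are not members, 27 of them tested, was counted in the same way. In the embryo proper 9 of them were higher and 1 was lower than in the apical cell, where 21.9% of all tested genes were called, and 10 were higher and 4 lower than in the suspensor, where 50.9% were. The suspensor was higher than the basal cell in 7 and lower in 4, where 44.9% were called, and the apical cell was higher than the basal cell in 5 and lower in 2, where 24% were. Their median log2 difference was -0.01, 0.04, 0.35 and 0.17 in these comparisons. The locus AT2G33510 stood at 86.5 to 172 FPKM in the embryo proper, at 0 to 17.5 in the suspensor and at 0 to 4.96 in the apical cell, with no overlap. Its log2 difference was 5.96 over the apical cell (SE 0.56, adjusted p = 2.4e-08) and 3.81 over the suspensor (SE 0.56, adjusted p = 5.36e-06).

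Further condensing enzymes of the KCS family fell on either side. KCS5, a close relative of CER6, was at 4.96 to 23.0 FPKM in the embryo proper and at 0 to 0.08 in the suspensor (log2 difference 3.30, SE 0.49, adjusted p = 5.5e-06), and it was also above the basal cell in the apical cell (log2 difference 2.17, adjusted p = 0.00215). KCS16 stood at 0.97 to 6.28 FPKM in the embryo proper and KCS2 at 0.96 to 15.5, and both were higher than in the apical cell (log2 difference 2.01 and 2.33). KCS12 was the reverse: it was at 9.42, 8.18 and 5.80 FPKM with a Col mother and 0, 10.3 and 9.68 with a Ler mother in the suspensor, and at 0 in every embryo proper library (adjusted p = 6.13e-06). KCS12 reached 1 FPKM in suspensor libraries only, and KCS16 would not have passed the filter without the embryo proper. Of the same list, KCS3 and ABCG13 reached 1 FPKM in embryo proper libraries only, and KCR2 also needed them to pass. All of these were thus tested only through the group where they were high. Their calls are part of the counts of this list but are no support of their own.

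Among other regulators MYB30, known as an activator of very long fatty acid synthesis during defence, was also higher in the apical than in its sister cell. It stood at 160 to 298 FPKM in the apical cell, 19.0 to 56.2 in the basal cell, 89.2 to 188 in the embryo proper and 130 to 179 in the suspensor, and the apical cell was above the basal cell by 2.58 on the log2 scale (SE 0.25, adjusted p = 1.6e-07). DEWAX, a repressor of wax genes, was the opposite at 2 cells, at 0.30 to 49.6 FPKM in the basal cell and at 0 to 5.88 in the apical cell (log2 difference -3.21, SE 0.69, adjusted p = 0.00161). DEWAX was at 0 to 0.06 FPKM in the embryo proper. It would not have passed the filter without its basal cell libraries, so its calls are no support of their own.

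The homeodomain genes ATML1 and PDF2, whose proteins bind the L1 box, were read beside PDF1. ATML1 was detected in all libraries, at 38.0 to 62.3 FPKM in the apical cell, 33.9 to 57.0 in the basal cell, 61.9 to 80.0 in the embryo proper and 24.9 to 59.9 in the suspensor. PDF2 stood at 0.04 to 8.44 FPKM in the apical cell and at 72.4 to 98.4 in the embryo proper (log2 difference 4.82, SE 0.34, adjusted p = 2.4e-10), and at 55.9 to 85.1 in the suspensor. The other 2 epidermis markers were HDG12, a homeodomain gene of the same class, and the receptor kinase ACR4. HDG12 went the other way, at 100 to 157 FPKM in the apical cell and 52.2 to 64.9 in the embryo proper (log2 difference -1.17, SE 0.25, adjusted p = 0.00136), and it was lower in the suspensor, at 7.43 to 29.8, than in the basal cell, at 41.3 to 99.0 (log2 difference -1.84, SE 0.25, adjusted p = 3.59e-06). ACR4 stood at 0.07 to 4.09 FPKM in the apical cell and 3.90 to 7.63 in the embryo proper (adjusted p = 0.0604). Of the 7 members with an L1 box in the window, FDH, ABCG12, MYB94 and PDF1 were higher in the embryo proper than in the apical cell, and GPAT8, ABCG11 and MYB96 were not called. In that comparison 19 of all 24 tested members and 10.2% of all tested genes were higher, so a call was not more common in members with the box than in the others. Whether the box bears on these differences was not tested.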

How the data were processed

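The 24 libraries were made from SMART-Seq amplified cDNA, per the labels' protocols. For 20 the labels name Nextera XT, and for 4 (suspensor Ler replicate 1 and, in the basal cell, Ler replicates 2 and 3 and Col replicate 3) Nextera XT or NEBNext. The deposited FPKM values were made by the authors with TopHat2 2.1.1 and RSEM on TAIR10, per the submitters' processing notes, which give no roles or order. Depth was estimated from the commonest step of low values, with an assumed fragment of 200 bases.

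The 18206 genes with 3 or more libraries at an FPKM of 1 or above were fitted as log2(FPKM + 1) with limma 3.58.1 in R 4.3.3, with 8 group means, eBayes with a trend and Benjamini-Hochberg adjustment over all tested genes. The fit was tested on simulated data. Contrasts of cell types weight both crosses equally. Members and lists were chosen with earlier results of these data known. Named in full are PDF1, LTPG1, LTPG2 and MYB96, and per contrast and role up to 3 called members by log2 difference (or the 1 with the highest mean). For crosses and interaction up to 5 called members are named (or the 2 with the smallest p), and of the other cuticle genes up to 4 per contrast. Further members were named to account for all 35, with their values known. The alternatives were other pseudocounts, filters, scalings, weights, covariates and subsets of libraries. Gene names and sequences came from RefSeq (TAIR10.1). Protein sequences were not analysed here.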

Additional observations from a re-analysis of the deposited data

Results flagged for a closer look

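The difference between the lineages changed between 2 and 32 cells in 13 members, by the limma test of the interaction. The change on the log2(FPKM + 1) scale, 32 cells less 2 cells, was 4.87 for LTPG1, 4.33 for DCR, 4.25 for LACS2, 3.53 for GPAT4 (listed at 0 in the suspensor), 2.71 for CER6, 2.66 for HTH, 2.65 for CYP86A8, 2.56 for ABCG12, 2.44 for PDF1, 2.38 for KCR1 and 1.01 for CER2 (listed at 0 in the suspensor). It was -4.10 for MYB96 and -0.90 for ABCG11. The calls of DCR, LACS2, GPAT4, CYP86A8 and MYB96 held under all 39 other settings, while that of ABCG11 was lost under 22 of them, 15 of which leave out a library. The share of tested genes called was 35.5%.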

How the results depend on the processing

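Of 61 calls of members over all comparisons, 33 held under all 39 other settings, 46 held under the 37 that use both crosses, and none changed direction. With library weights the members called were 6 between apical and basal cell, and between crosses 4 in the basal cell and 0 in the suspensor. Between apical and basal cell 4 were called with the protocol wording as a covariate and 4 without the 4 libraries of that wording, a setting that called 1 for the crosses in the apical cell. With only the groups compared, 0 were called for the crosses in the basal cell and 0 in the suspensor, where a pseudocount of 0.1 also gave 0. With a Col mother alone 12 were called for embryo proper against apical cell, and with a Ler mother alone 7 for the interaction, each from fewer samples. Of the other cuticle genes a Col mother alone gave 4 between apical and basal cell and 6 between embryo proper and apical cell. Leaving out each library in turn gave 2 to 3 members between apical and basal cell, 12 to 15 for embryo proper against suspensor, 17 to 20 for embryo proper against apical cell, 11 to 13 for suspensor against basal cell and 11 to 14 for the interaction. For the crosses it gave 0 to 1 in the apical cell, 0 to 4 in the basal cell, 0 to 0 in the embryo proper, 0 to 2 in the suspensor and 0 to 1 over all cell types. For the other cuticle genes it gave 6 to 7, 13 to 16, 8 to 11 and 10 to 12. The causes were not tested.

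Same-numbered replicates did not deviate together (3 of 84 correlations over 0.1, from -0.18 to 0.30), and 8 of 24 libraries correlated best with their own number. With the replicate block 2, 14, 20 and 11 members were called between cell types, 0, 1, 0, 1 and 0 between crosses and 13 for the interaction. Rescaling to TPM moved the median of all genes to 0.14, 0.18, -0.16 and -0.20 on the log2 scale and left the member counts at 2, 14, 19 and 11. Values under about 1 FPKM rest on few fragments in short genes, so an entry of 0 does not show absence.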
